A study of Mus musculus with 48 samples.

Results

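The 10 genes described here encode integrin subunits, and they were read from the rows of the count table over all 48 libraries. They are 10 of the 55357 genes in the table, and all 10 were among the 21390 genes that passed the filter on low counts. Itgam, Itgal, Itgb2 and Itga4 were taken as integrins of leukocytes, and Itgav, Itgb1, Itga5, Itga6, Itgb5 and Itgb8 as integrins of the matrix. The libraries came from the dorsal dentate gyrus of 24 wild-type C57BL/6J mice, 6 to 8 weeks of age by the series record, while the methods give a slightly older age. Each mouse received either kainate or saline into the hippocampus of one side, and both sides were sampled at day 3, 7 or 14. The injected side is called the epileptogenic zone (EZ), and the opposite side, which was not injected, the peri-ictal zone (PIZ). This gave 12 groups of 4 libraries, each with 2 male and 2 female mice and no genetic change in any group. Kainate mice were kept only where they had shown behavioural seizures after the injection, and saline mice had the same surgery.

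Integrins are receptors made of 1 alpha and 1 beta subunit that tie the cell to matrix or to other cells, and a subunit reaches the surface only with a partner. Itgb2 (CD18) pairs with Itgam (CD11b) to form Mac-1, the complement receptor of microglia and myeloid cells, and with Itgal (CD11a) to form LFA-1, which binds ICAMs. Itga4 pairs with Itgb1 to form VLA-4, the receptor for Vcam1 and fibronectin. Itgb1 also pairs with Itga5, the fibronectin receptor, and with Itga6, a laminin receptor. Itgav pairs with Itgb5, which binds vitronectin, and with Itgb8, which activates latent TGF-beta. In the brain Mac-1 marks microglia, while Itgb1 and Itgav serve glia, vessels and neurons alike.

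The subunits lie on 7 chromosomes (GRCm39). Itga6 (chr2:71575960-71689757), Itga4 (chr2:79085660-79163467) and Itgav (chr2:83554403-83637260) are on the forward strand of chromosome 2. Itgal (chr7:126895432-126934320) and Itgam (chr7:127661808-127717753) are on the forward strand of chromosome 7. The others are Itgb2 (chr10:77366086-77401542), Itgb1 (chr8:129411876-129460618) and Itgb5 (chr16:33649988-33771137) on the forward strand, and Itga5 (chr15:103252713-103275270) and Itgb8 (chr12:119121748-119202584) on the reverse strand. Itgal, Itgb2, Itgb1, Itgb5 and Itgb8 overlap no other annotated gene. On their own strand Itgam overlaps Gm49368, Itga5 overlaps Mir6963 and Itga6 overlaps Gm13663 and Gm13662. The authors' counting allowed reads over several genes and preferred the gene of largest overlap.

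Promoter sequence is shown for 4 subunits whose levels took different courses: Itgam and Itga5, which were raised in the EZ, Itga4, which was lowered in the PIZ, and Itgb8, which moved least in the EZ among the matrix subunits. The RefSeq promoter table (GRCm38.p6) held 7 of the 10 genes, and Itgal, Itgb2 and Itga6 were not matched. Each line is the 250 bases before the annotated start, 5′ to 3′ on the strand of the gene. Capitals mark GAGGAA on either strand, the core of sites bound by PU.1, a factor of myeloid cells. The windows are chr7:128062390-128062639 (+) for Itgam, chr15:103366792-103367041 (-) for Itga5, chr2:79255176-79255425 (+) for Itga4 and chr12:119238277-119238526 (-) for Itgb8.
Itgam: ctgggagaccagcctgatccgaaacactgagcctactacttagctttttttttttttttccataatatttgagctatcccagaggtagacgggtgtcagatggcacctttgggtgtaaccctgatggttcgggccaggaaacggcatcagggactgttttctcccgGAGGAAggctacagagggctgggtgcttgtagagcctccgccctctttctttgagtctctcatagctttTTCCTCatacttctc
Itga5: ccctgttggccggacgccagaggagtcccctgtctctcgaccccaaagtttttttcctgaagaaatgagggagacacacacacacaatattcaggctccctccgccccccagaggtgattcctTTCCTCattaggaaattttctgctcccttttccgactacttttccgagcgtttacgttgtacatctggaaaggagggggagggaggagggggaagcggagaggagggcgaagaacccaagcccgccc
Itga4: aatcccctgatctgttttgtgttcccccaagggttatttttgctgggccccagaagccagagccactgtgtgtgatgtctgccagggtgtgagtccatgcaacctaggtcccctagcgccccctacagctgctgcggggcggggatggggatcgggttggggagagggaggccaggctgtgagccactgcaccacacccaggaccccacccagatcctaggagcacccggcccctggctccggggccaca
Itgb8: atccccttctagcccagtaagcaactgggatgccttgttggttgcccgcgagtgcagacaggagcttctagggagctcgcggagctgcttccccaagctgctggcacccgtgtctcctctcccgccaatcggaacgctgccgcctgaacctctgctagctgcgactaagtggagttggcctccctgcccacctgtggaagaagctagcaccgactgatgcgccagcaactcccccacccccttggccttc
The Itgam window held 2 matches, 84 and 15 bases before the start, and the Itga5 window held 1, 127 bases before it. No match lay in the Itga4 and Itgb8 windows, nor in that of Itgb5, while those of Itgav and Itgb1 held 2 and 1. Of all 32851 promoters of this length, 23.3% held GAGGAA. The AP-1 motif TGANTCA was found in none of the 7 windows, and in 6.75% of all promoters. These are matches of letters and not measured sites.

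Levels are given as CPM (counts scaled to a common library size) after TMM scaling of the library sizes, and the totals lay between 17762656 and 25712975 counts per library. A gene was called higher or lower where its fold change passed 1.5 and its p, adjusted over all genes by Benjamini-Hochberg, lay under 0.01 in an edgeR quasi-likelihood model of the 48 libraries. Fold changes are log2 values of kainate over saline with their standard errors (SE), n = 4 mice in each group. Nothing in the records ties the mice of a group to separate litters or days. The tissue held its own markers, since the summed level of 6 granule cell markers lay between 166 and 1126 CPM in all libraries. A fall in a marker can come from fewer cells or from less RNA per cell, and in whole tissue these cannot be told apart. One library stood apart, the EZ library of mouse 27 (kainate, day 14), and results that rest on it are also given without it.

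In saline mice the matrix subunits Itgb5, Itgb8 and Itgb1 led the list. Per kilobase of the canonical transcript, the mean level over 24 saline libraries was highest for Itgb5, at 14.1 ± 4.06 RPKM (SD), and then for Itgb8, at 11.3 ± 1.86 RPKM. Itgb1 followed at 10.2 ± 1.22 RPKM, Itgam at 8.83 ± 4.70 RPKM, Itgav at 7.82 ± 1.07 RPKM and Itga6 at 7.48 ± 1.36 RPKM. Neighbours among these 6 differed by less than the larger of their SDs. Itga4 at 2.99 ± 0.962 RPKM and Itgb2 at 2.39 ± 1.19 RPKM were lower. Itga5 at 0.457 ± 0.168 RPKM and Itgal at 0.0702 ± 0.0521 RPKM were the scarcest. With the union of all exons as length, Itgb1 came first, then Itgb8 and then Itgb5, and Itgb2 passed Itga4. Itgal had between 1 and 240 counts in a library, so its values carry the largest counting error of the 10.

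Between the sides of saline mice, averaged over the 3 days, no subunit was called (edgeR 0 of 10, DESeq2 0, limma-voom 0, 4 at an unadjusted p under 0.05), beside 0.0234% of all genes. Itgb2 had the largest difference, 0.78 ± 0.27 higher in the EZ on the log2 scale (adjusted p = 0.408). Itga4 went the other way, at -0.52 ± 0.19 (adjusted p = 0.451). At day 3 Itgam measured 43.5 to 102 CPM in the saline EZ and 21.2 to 31.3 CPM in the saline PIZ, and Itgb2 7.95 to 21.1 CPM and 4.41 to 6.03 CPM. In 4 subunits, these and Itga6 and Itgb5, all saline EZ libraries lay above all saline PIZ libraries at day 3, as in 5.16% of all genes. The log2 differences of Itgam and Itgb2 at that day were 1.34 ± 0.41 (adjusted p = 0.385) and 1.35 ± 0.46 (adjusted p = 0.509). Tested day by day, no subunit was called at day 3 (edgeR 0 of 10, 6 at an unadjusted p under 0.05), nor at day 7 or 14 (0 at an unadjusted p under 0.05 at either day), beside 0.0281%, 0% and 0% of all genes. At day 14 the difference of Itgam was 0.11 ± 0.41. Itgam averaged 65.3 ± 25.2 CPM (SD, n = 4) in the saline EZ at day 3 and 25.9 ± 1.82 CPM at day 14, and the EZ effects of each day are taken over these baselines.

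In the EZ at day 3, 8 of the 10 subunits were higher in kainate mice, all but Itga4 and Itgb8, where 16.1% of all genes were called higher and 8.61% lower. In 9 subunits, Itgb8 among them, all 4 kainate libraries lay above all 4 saline libraries, which held for 23.9% of all genes. The median log2 fold change was 2.03 for the 4 leukocyte subunits, 1.64 for the 6 matrix subunits and 0.03 for all genes.

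Itgal, the alpha subunit of LFA-1, measured 1.5996, 3.56, 6.82 and 8.95 CPM in the EZ of kainate mice at day 3 and 0.315, 0.323, 0.441 and 0.877 CPM in saline mice. The groups did not overlap, and the difference was 3.42 ± 0.60 (adjusted p = 1.832e-05). Its partner Itgb2 measured 45.3, 54.6, 87.4 and 110.5 CPM against 7.95, 10.6, 11.4 and 21.1 CPM, where the highest saline library was that of mouse 29. This was a log2 change of 2.55 ± 0.45 (adjusted p = 1.844e-05). Itgam, the other partner of Itgb2, measured 141, 187, 208 and 212 CPM against 43.5, 56.8, 59.3 and 102 CPM. Its log2 change was 1.52 ± 0.40 (adjusted p = 0.0022), and it missed the threshold when saline mouse 18 or 37 was left out. Itga4 overlapped between groups, at 16.7, 28.9, 30.5 and 38.6 CPM in kainate mice and 22.4, 23.1, 28.2 and 28.6 CPM in saline mice, and was not called (0.17 ± 0.33, adjusted p = 0.707).

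Among the matrix subunits, Itga5 had the largest log2 change of the 10 in the EZ at day 3, at 3.86 ± 0.53 (adjusted p = 5.096e-07). It measured 21.9, 35.2, 51.0 and 72.5 CPM in kainate mice and 2.30, 2.48, 3.00 and 4.64 CPM in saline mice, a gap of several-fold between the nearest libraries. Itgav measured 155, 233, 284 and 318 CPM against 54.1, 60.6, 63.3 and 85.6 CPM, a change of 1.91 ± 0.24 (adjusted p = 1.33e-07). Itgb5 rose by 1.78 ± 0.33, Itgb1 by 1.497 ± 0.24 and Itga6 by 1.38 ± 0.25, with adjusted p between 6.939e-06 and 4.475e-05. Itgb8 measured 145, 161, 169.9 and 174 CPM against 92.2, 107, 122 and 137 CPM. Its groups did not overlap and its adjusted p was 0.00554, but its log2 change of 0.51 ± 0.15 stayed under the fold threshold. By library size alone, and without saline mouse 29, it was called.

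**Figure D1:**
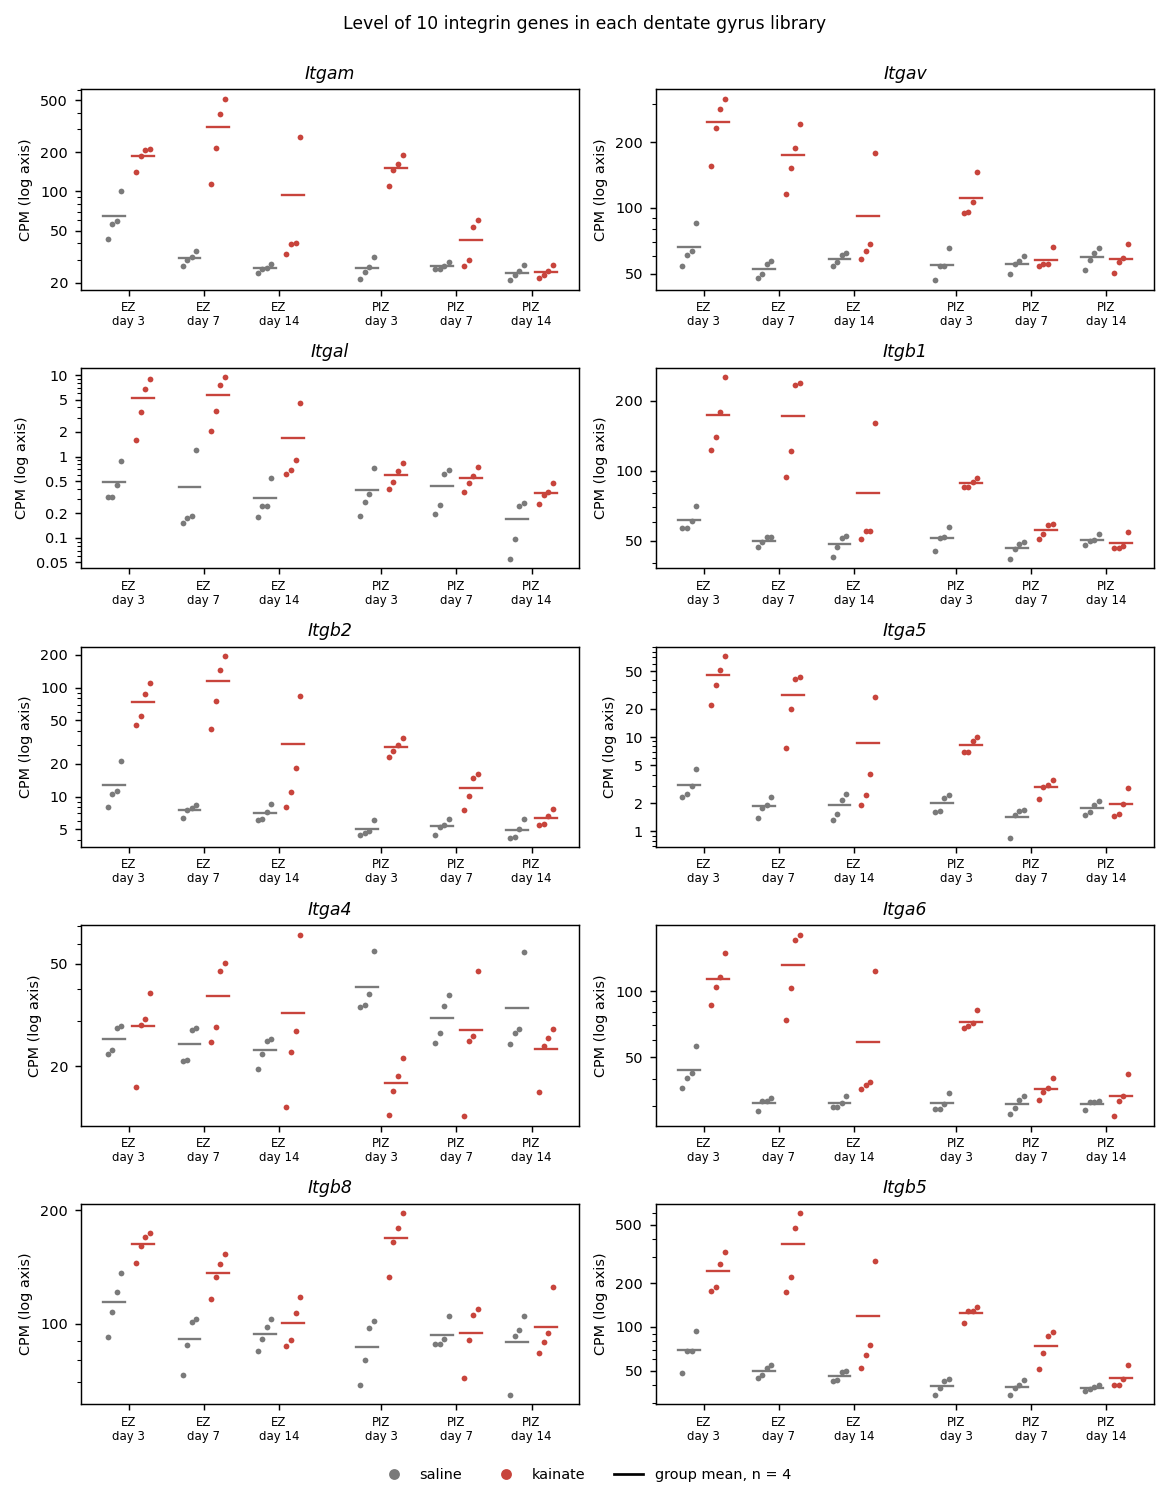
Level of each integrin gene in CPM (log axis) for the 12 groups, with 1 point per library sorted by value within its group and a bar at the mean of 4. In the EZ at days 3 and 7 the kainate points of 9 genes lie above all saline points, and 1 EZ kainate library of day 14 lies far above the other 3 in 8 genes.

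At day 7 in the EZ, the same 8 subunits were called higher as at day 3, beside 20.6% of all genes called higher and 11.9% lower. Again 9 subunits, Itgb8 included, had all 4 kainate libraries above all 4 saline libraries (23.7% of all genes). The median log2 change was 3.54 for the leukocyte subunits, 1.93 for the matrix subunits and 0.01 for all genes. Itgb2 measured 42.02, 75.4, 146 and 196 CPM in kainate mice and 6.33, 7.58, 7.90 and 8.36 CPM in saline mice. This change of 3.93 ± 0.48 (adjusted p = 3.796e-08) and that of Itga5 were the largest of the 10 at that day, close to each other and in the other order without mouse 21 (3.54 for Itgb2 and 3.64 for Itga5). Itgam measured 114, 215, 393 and 513 CPM against 26.8, 29.8, 31.3 and 35.04 CPM, a change of 3.33 ± 0.43 (adjusted p = 8.54e-08). Itgal measured 2.04, 3.63, 7.55 and 9.41 CPM against 0.153, 0.174, 0.188 and 1.19 CPM, a change of 3.75 ± 0.62 (adjusted p = 3.515e-06). In these 3 genes the highest kainate library was that of mouse 21 and the lowest that of mouse 23.

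The matrix subunits at day 7 were led by Itga5, at 7.75, 19.8, 41.3 and 43.0 CPM in kainate mice against 1.38, 1.78, 1.91 and 2.31 CPM in saline mice (3.92 ± 0.54, adjusted p = 2.187e-07). Itgb5 measured 175, 221, 479 and 602 CPM against 44.8, 46.8, 52.4 and 55.1 CPM, a change of 2.89 ± 0.35 (adjusted p = 3.707e-08). The 2 kainate libraries with the most Itgb5 were also those with the most Itgam and Itgb2, mice 21 and 35. Itga6 rose by 2.08 ± 0.25, Itgb1 by 1.78 ± 0.25 and Itgav by 1.74 ± 0.24, with adjusted p between 3.978e-08 and 2.371e-07. Itgb8 measured 116, 133, 144 and 153 CPM against 73.0, 87.5, 101 and 103 CPM. Its log2 change of 0.58 ± 0.15 (adjusted p = 0.0012) lay just under the fold threshold, and it was called under limma-voom, by library size alone and with a stricter filter on low counts. Itga4 gave 0.62 ± 0.33 (adjusted p = 0.109), with kainate libraries at 24.8, 28.3, 46.8 and 50.3 CPM over saline libraries at 20.95 to 28.2 CPM.

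No subunit was called for a difference of its EZ effect between day 3 and day 7 (edgeR 0 of 10, DESeq2 0, limma-voom 3, 4 at an unadjusted p under 0.05), beside 0.145% of all genes by edgeR and 5.73% by limma-voom. Itgam had the largest difference, 1.81 ± 0.57 more at day 7 (adjusted p = 0.136), and that of Itga5 was 0.06 ± 0.69 (adjusted p = 0.983). The saline baseline of Itgam moved too, from a mean of 65.3 CPM at day 3 to 30.7 CPM at day 7. The kainate mean went from 187 to 309 CPM.

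At day 14 in the EZ, 4 subunits were called higher, Itgam, Itgb2, Itga5 and Itgb5, beside 2.32% of all genes higher and 0.0374% lower. These calls rested on mouse 27. Itgam measured 33.1, 39.7 and 40.4 CPM in the other 3 kainate mice and 259 CPM in mouse 27, over saline libraries at 23.6, 25.7, 26.1 and 28.1 CPM. Itgb5 measured 52.5, 64.4 and 75.5 CPM and, in mouse 27, 285 CPM, over 42.7, 43.5, 48.9 and 49.96 CPM. The log2 change of Itgam was 1.85 ± 0.41 (adjusted p = 0.0046) and fell to 0.55 without mouse 27. That of Itgb2 was 2.12 ± 0.45 (adjusted p = 0.0033) and 0.84 without it, that of Itga5 2.22 ± 0.53 (adjusted p = 0.0070) and 0.60, and that of Itgb5 1.37 ± 0.33 (adjusted p = 0.0088) and 0.47. Without mouse 27 none of the 10 was called, where 0.0323% of all genes were still called higher. None was called either when 1 of the saline mice 24, 28, 31 or 39 was left out, beside 0.138% to 0.626% of all genes. In 4 subunits (Itgam, Itgal, Itga6 and Itgb5) all kainate libraries lay above all saline libraries, as in 4.58% of all genes. Itgal, at 0.605, 0.674, 0.919 and 4.53 CPM over 0.181 to 0.550 CPM, was not called (2.46 ± 0.66, adjusted p = 0.0186), and its change was 1.27 without mouse 27.

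The same library had the highest sums of 8 of the 11 marker lists in its group, all but those of granule cells, neutrophils and choroid plexus. Its 8 microglia markers summed to 2625 CPM, where the lowest library of the group had 503 CPM and saline libraries 409 to 435 CPM. Its 6 astrocyte markers summed to 8438 CPM, over a lowest value of 2053 CPM. The monocyte and macrophage markers summed to 37.7 CPM (lowest 10.1), the mural and fibroblast markers to 262 CPM (135) and the endothelial markers to 209.9 CPM (139.6). The part of these cells in the level of any subunit was not tested. From day 7 to day 14 no subunit was called for a change of its EZ effect (edgeR 0 of 10, DESeq2 0, limma-voom 8, 8 at an unadjusted p under 0.05), beside 0.271% of all genes by edgeR and 29.5% by limma-voom. Without mouse 27, 7 were called, beside 18.8% of all genes, and without mouse 23, 4, beside 10.7%.

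In the PIZ at day 3, 7 subunits were called higher, Itgam, Itgb2, Itgav, Itga5, Itga6, Itgb5 and Itgb8, and 1 was called lower, Itga4. Among all genes 7.12% were called higher and 1.57% lower. All 4 kainate libraries lay above all 4 saline libraries in 8 subunits, these 7 and Itgb1 (17.1% of all genes), and below them in Itga4 (13.6% of all genes). The median log2 change was 1.57 for the leukocyte subunits, 1.12 for the matrix subunits and 0.02 for all genes.

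Itga4, the alpha subunit of VLA-4, measured 12.9, 16.1, 18.3 and 21.6 CPM in the PIZ of kainate mice at day 3 and 33.9, 34.8, 38.2 and 56.1 CPM in saline mice. No library of one group reached the other, and the log2 change was -1.24 ± 0.34 (adjusted p = 0.0064). This call lay near the threshold. It was lost in 8 of 16 alternatives, by library size alone and when mouse 18, 29, 30, 37, 38, 41 or 44 was left out, while the change stayed between -1.37 and -1.05 whichever mouse was omitted. In the same tissue Itgb1, its partner, measured 84.7, 85.2, 89.6 and 93.1 CPM against 45.3, 51.3, 52.0 and 57.2 CPM and was not called (0.78 ± 0.24, adjusted p = 0.0176).

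Itgam measured 110.1, 146, 163 and 189 CPM in the PIZ at day 3 against 21.2, 24.4, 26.3 and 31.3 CPM, a change of 2.56 ± 0.42 (adjusted p = 3.512e-05). Itgb2 measured 23.03, 26.05, 29.6 and 34.2 CPM against 4.41, 4.65, 4.85 and 6.03 CPM, a change of 2.50 ± 0.46 (adjusted p = 1.515e-04). Both subunits of Mac-1 were thus clear of their saline libraries on the side that was not injected. Itgal overlapped there, at 0.404, 0.492, 0.668 and 0.839 CPM against 0.186, 0.273, 0.347 and 0.729 CPM, and was not called (0.65 ± 0.68, adjusted p = 0.530).

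Itgb8 measured 133, 164, 179 and 197 CPM in the PIZ at day 3 against 68.8, 79.8, 97.1 and 102 CPM. This was a change of 0.96 ± 0.15 (adjusted p = 2.053e-05), its only call among the 6 comparisons of kainate with saline. Itga5 measured 6.99, 7.01, 9.03 and 10.1 CPM against 1.59, 1.65, 2.28 and 2.41 CPM (2.06 ± 0.52, adjusted p = 0.0037). Itgb5 rose by 1.65 ± 0.34, Itga6 by 1.24 ± 0.25 and Itgav by 1.01 ± 0.23, with adjusted p between 3.995e-04 and 0.00157. Without kainate mouse 30 the calls of Itga4, Itgav and Itga5 were lost and 5 remained, beside 6.64% of all genes. The call of Itga5 was kept in 13 of 16 alternatives, and was also lost without saline mouse 37 or 41.

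At day 7 none of the 10 subunits was called in the PIZ (edgeR 0, DESeq2 0, limma-voom 3, 2 at an unadjusted p under 0.05), where edgeR called 0.15% of all genes higher and 0.0514% lower and limma-voom called 3.84% in all. In 4 subunits all kainate libraries still lay above all saline libraries, Itga5, Itgb1, Itgb2 and Itgb5, as in 7.63% of all genes. Itgb5 measured 51.6, 66.7, 86.9 and 92.8 CPM against 34.1, 37.9, 40.2 and 42.9 CPM (0.94 ± 0.33, adjusted p = 0.152). Itgb2 measured 7.47, 10.01, 14.7 and 16.0 CPM against 4.43, 5.26, 5.45 and 6.24 CPM (1.17 ± 0.46, adjusted p = 0.211). The same 2 mice, 26 and 35, were highest in both. At day 14 none was called (edgeR 0, DESeq2 0, limma-voom 0, and 0 at an unadjusted p under 0.05), beside 0.00935% of all genes higher and 0.00468% lower. There no subunit had all kainate above all saline libraries, against 3.7% of all genes. For the change of the PIZ effect from day 3 to day 7, no subunit was called (edgeR 0 of 10, DESeq2 0, limma-voom 4, 6 at an unadjusted p under 0.05), beside 0.0234% of all genes by edgeR and 0.659% by limma-voom, and Itgb8 came nearest at -0.94 ± 0.21 (adjusted p = 0.0613).

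**Figure D2:**
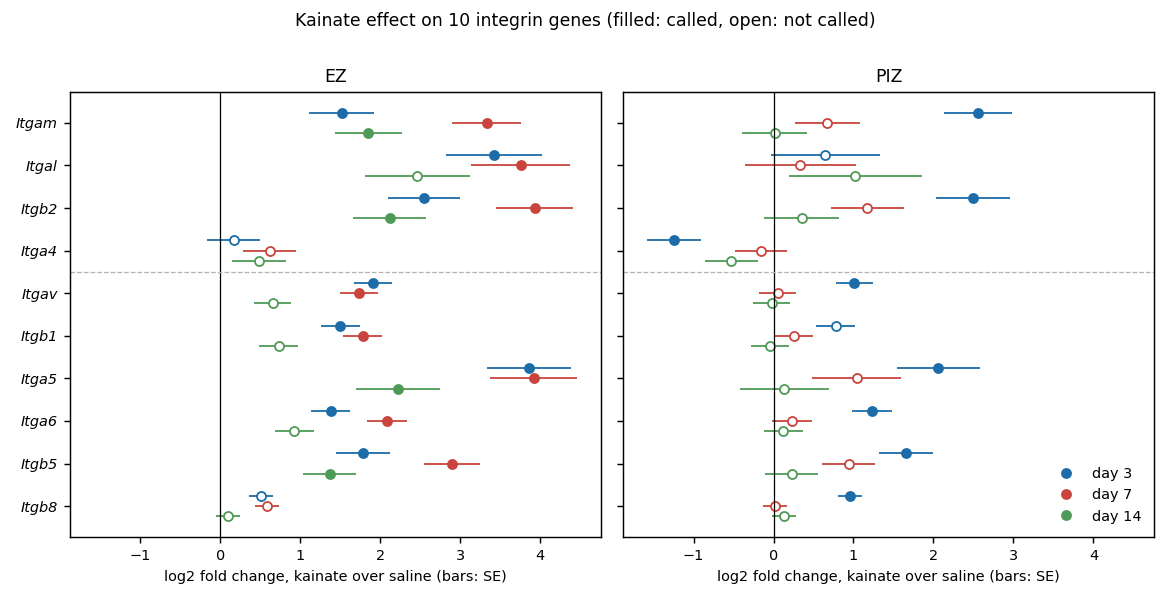
Log2 fold change of kainate over saline (x axis, bars SE, n = 4 mice a group) for 10 integrin genes in the EZ and the PIZ at days 3, 7 and 14, with leukocyte subunits above the dashed line. Filled points passed an adjusted p under 0.01 and a fold over 1.5. Itga4 at day 3 in the PIZ is the one filled point below 0.

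The difference between sides was itself tested. At day 7 the effect in the EZ exceeded that in the PIZ in 8 subunits, all but Itga4 and Itgb8, beside 9.89% of all genes. It was 3.42 ± 0.95 for Itgal (adjusted p = 0.0084), 2.88 ± 0.77 for Itga5 (adjusted p = 0.0069), 2.76 ± 0.64 for Itgb2 (adjusted p = 0.0034) and 2.66 ± 0.58 for Itgam (adjusted p = 0.0024). Itgb5 (1.95 ± 0.47), Itga6 (1.86 ± 0.35), Itgav (1.68 ± 0.33) and Itgb1 (1.52 ± 0.34) followed, with adjusted p between 0.00179 and 0.00392. With the mouse as a replicate block, which pairs both sides of an animal, Itgb8 was called too (0.59, adjusted p = 0.0028), beside 11% of all genes in that fit. The number of calls depended on single mice, for the subunits as for all genes. It was 0 without mouse 21 (0.00463% of all genes called), 1 without mouse 20 or 35 (0.686% and 0.869%) and 2 without mouse 89 (1.02%). It was 5 without mouse 34 (3.01%) and 6 without mouse 33 (3.68%). Without mouse 21 the difference was still 2.13 for Itgam and 2.20 for Itgb2.

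At day 3 no subunit was called for a difference between sides (edgeR 0 of 10, DESeq2 0, limma-voom 5, 6 at an unadjusted p under 0.05), where edgeR called 0.0655% of all genes and limma-voom 8.78%. Itgal had the largest difference, 2.77 ± 0.92 (adjusted p = 0.116), and Itga4 gave 1.41 ± 0.47 (adjusted p = 0.116). Itgam and Itgb8 had the opposite sign, -1.04 ± 0.57 (adjusted p = 0.326) and -0.45 ± 0.21 (adjusted p = 0.256). The kainate means of Itgam were 187 CPM in the EZ and 152 CPM in the PIZ, over saline means of 65.3 and 25.8 CPM. Those of Itgb8 were 162 and 168 CPM, over 114 and 86.8 CPM. At day 14 none was called (edgeR 0, DESeq2 0, limma-voom 0, 8 at an unadjusted p under 0.05), beside 0% of all genes.

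The balance of partner subunits was followed as the log2 ratio of their counts within each library, with a prior count added to each. In the EZ at day 3, Itga5 over Itgb1 was -2.01 ± 0.32 in kainate mice (SD, n = 4) and -4.31 ± 0.32 in saline mice, a shift of 2.30. The shift in the EZ was 1.92 at day 7, and in the PIZ it was 1.24 at day 3 and 0.75 at day 7, and in none of these did the groups overlap. Itgb8 over Itgav moved down in the EZ, from 0.80 ± 0.11 to -0.56 ± 0.42 at day 3 and from 0.78 ± 0.12 to -0.31 ± 0.54 at day 7. In the PIZ at day 3 it was 0.61 ± 0.19 in kainate and 0.65 ± 0.17 in saline mice.

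Itga4 over Itgb1 shifted by -1.33 in the EZ and by -2.01 in the PIZ at day 3. Itgam over Itgb2 shifted by -0.97 in the EZ at day 3 and by -0.57 at day 7, so that Itgb2 gained on Itgam. In the PIZ the ratio was 2.42 ± 0.11 in kainate and 2.35 ± 0.07 in saline mice at day 3, and at day 7 it shifted by -0.52 with no overlap. Itgal over Itgb2 shifted by -1.87 in the PIZ at day 3. Of the 36 ratio comparisons, 14 had the smallest exact permutation p that 4 against 4 mice allow, 0.0286 (two-sided). After adjustment over the 36 none was under 0.05, and the smallest adjusted value was 0.0735.

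**Figure D3:**
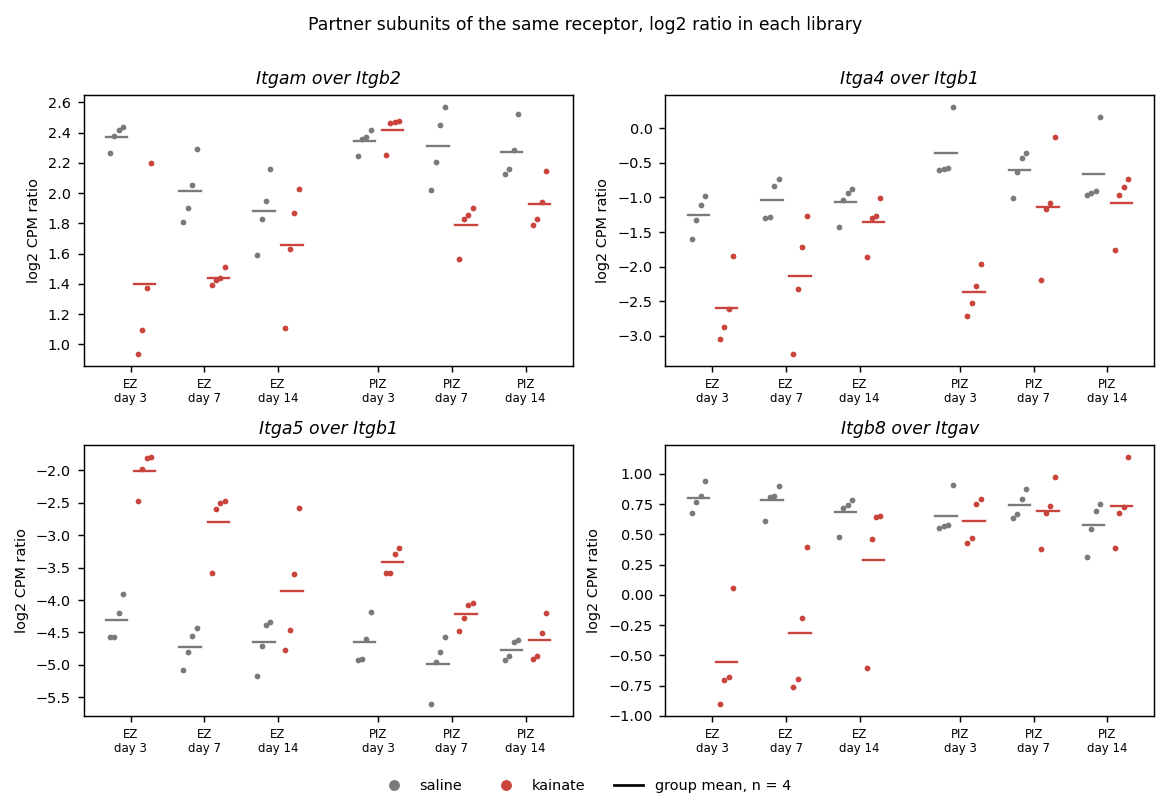
Log2 ratio of CPM of partner subunits (y axis) in each library, by zone and day, with points sorted by value and bars at the mean of 4. Kainate points lie below saline points in the EZ at days 3 and 7 for Itgb8 over Itgav and above them for Itga5 over Itgb1.

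Markers of other cells moved with these subunits, and their part in the subunit levels was not tested. The 8 microglia markers were called higher in 4 of 8 genes in the EZ at day 3, in 8 of 8 at day 7 and in 8 of 8 in the PIZ at day 3. For these and the lists that follow, the shares of all genes called higher were 16.1% and 20.6% in the EZ at days 3 and 7, 2.32% at day 14, and 7.12% in the PIZ at day 3. The shares called lower in the EZ were 8.61% and 11.9%. The microglia marker sum lay between 1490.4 and 5073 CPM in the EZ of kainate mice at day 7 and between 445 and 483 CPM in saline mice. Of 8 monocyte and macrophage markers, 5 were called higher in the EZ at day 3 and 6 at day 7, and 0 in the PIZ at any day. Their sum was 29.3 to 103 CPM in the EZ of kainate mice at day 3 against 14.7 to 22.6 CPM in saline mice, and 17.6 to 30.3 CPM against 14.5 to 18.5 CPM in the PIZ. All 6 mural and fibroblast markers and 4 of 6 endothelial markers were called higher in the EZ at days 3 and 7, and none of either list in the PIZ. Of 6 astrocyte markers, 3 were called higher in the EZ at day 3, 5 at day 7 and 3 in the PIZ at day 3. Of 6 oligodendrocyte lineage markers, 2 were called higher in the EZ at day 3, 3 at day 7 and none in the PIZ. Of 5 choroid plexus markers 3 could be tested, and 1 was called higher in the EZ at day 3. Their sum at day 3 was 11.6 to 23.1 CPM in kainate and 3.002 to 5.40 CPM in saline mice in the EZ, and 6.19 to 22.7 CPM against 3.74 to 5.99 CPM in the PIZ.

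Markers of other leukocytes were scarce. The T cell genes Cd3d, Cd3e and Cd3g reached at most 12, 12 and 20 counts in any library, and the neutrophil gene Ly6g at most 3. Of 8 T and NK cell markers 2 could be tested, and their sum was at most 3.72 CPM in a library. Of these Cd4, which microglia and macrophages can also carry, was called higher in the EZ at day 7 (4.01 ± 0.72, adjusted p = 1.398e-05), and Trac, of the T cell receptor, was not (0.47 ± 0.39). Of 4 B cell markers 1 could be tested, Cd79b, and it was called higher in the EZ at day 3 (1.81 ± 0.50) and day 7 (2.67 ± 0.51), with at most 3.84 CPM in a library. The kainate libraries with the most Cd79b there, mouse 38 at day 3 and mouse 21 at day 7, also had the highest microglia marker sums. The part of the T and B cell markers in the subunit levels was not tested. Of 6 neutrophil markers 2 could be tested, with a highest sum of 3.81 CPM.

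Set against the microglia marker sum, Itgb5 kept an almost constant share in saline libraries, with group means of 10.3% to 10.9%. In kainate mice the mean share was 16.6% ± 1.99 (SD, n = 4) in the EZ at day 3, 11.9% ± 0.995 at day 7 and 10.9% ± 0.391 at day 14. Kainate mice had shares in the PIZ of 12.2% ± 0.838, 12.3% ± 0.258 and 11.3% ± 0.754 in the same order of days. The share of Itgb2 was 5.05% ± 1.14 in the EZ at day 3 against 1.88% ± 0.419 in saline mice, and 3.60% ± 0.538 against 1.604% ± 0.131 at day 7. In the PIZ it was 2.76% ± 0.421 against 1.33% ± 0.0812 at day 3 and 1.96% ± 0.158 against 1.42% ± 0.215 at day 7. For Itgam it was 13.2% ± 2.26 against 9.70% ± 1.57 in the EZ at day 3 and 9.78% ± 1.44 against 6.55% ± 0.721 at day 7. In the PIZ the Itgam share was 14.8% ± 2.83 at day 3 against 6.87% ± 0.315, and 6.87% ± 1.07 against 7.10% ± 0.726 at day 7. For Itgal it was 0.345% ± 0.165 in the EZ at day 3 against 0.0778% ± 0.0440, and in the PIZ at that day 0.0585% ± 0.0183 against 0.0982% ± 0.0490. These shares are a description and were not tested.

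**Figure D4:**
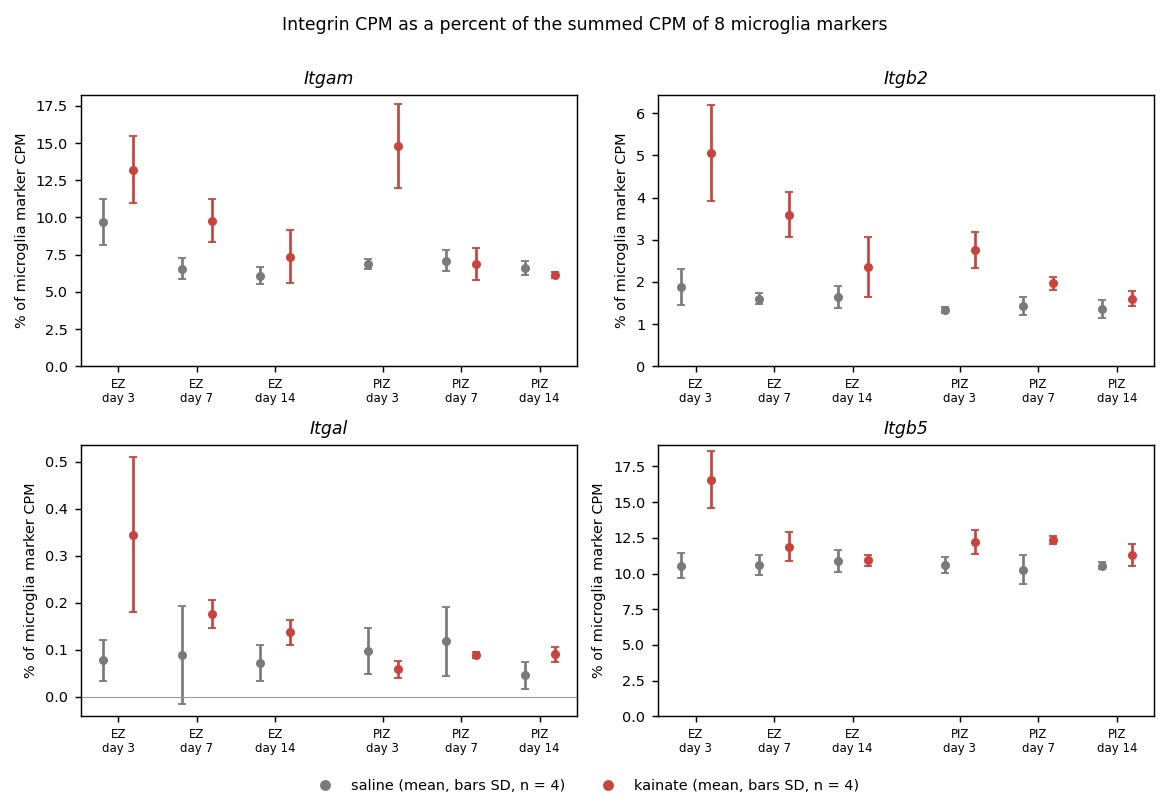
CPM of 4 integrin genes as a percent of the summed CPM of 8 microglia markers (y axis from 0), by zone and day, as mean and SD of 4 libraries. Itgb2 stands above its saline share in both zones at days 3 and 7, and Itgb5 changes most in the EZ at day 3.

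Across the 48 libraries Itga4 had little in common with the other subunits, with Pearson r between -0.303 (Itgb8) and 0.204 (Itgal). The highest r among the members was 0.994, between Itgb2 and Itgb5. The genes named next are the nearest among the tested genes, with the members themselves left out. Nearest to Itgb2 were Ctsz (0.993), Fcer1g (0.993) and Arpc1b (0.992), and nearest to Itgal were Cybb (0.936), Plau (0.936) and Il2rg (0.932). Nearest to Itgav were Ugdh (0.971), Cav1 (0.968) and Amotl1 (0.968), to Itga5 Msn (0.985), Ctsc (0.981) and Anxa2 (0.98), and to Itgb8 Slc13a3 (0.890), Fndc3a (0.887) and Kremen1 (0.875). All of these r describe the same 48 libraries, which share treatment, mice and cell makeup.

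Of 17 other integrin subunits 15 could be tested, and 9 were called higher in the EZ at day 3 (16.1% of all genes), 9 at day 7 (20.6%) and 1 at day 14 (2.32%). Their median log2 change in the EZ was 1.45 at day 3 and 1.37 at day 7. Itgax (CD11c), another partner of Itgb2, was that 1 gene, at 3.38 ± 0.53 (adjusted p = 2.598e-04), and it stayed called without mouse 27 (2.68 ± 0.49, adjusted p = 0.0092). A model of only the compared groups called 0% of all genes at that day, so the Itgax call was lost there. Itgax was also called in the EZ at day 3 (3.62 ± 0.53) and day 7 (3.37 ± 0.51) and in the PIZ at day 3 (3.58 ± 0.64) and day 7 (3.61 ± 0.61, adjusted p = 0.0013). Itgb3, a partner of Itgav, rose in the EZ by 1.46 ± 0.37 at day 3 and 2.54 ± 0.38 at day 7. Itga1, a collagen receptor subunit, rose by 1.23 ± 0.22 and 1.37 ± 0.22. The laminin receptor subunit Itga7, the most abundant of the list per length, gave -0.24 ± 0.26 and -0.65 ± 0.26, Itgb4 gave 0.28 ± 0.27 and 0.68 ± 0.27, and none of these 4 values was called. Itga8 fell by 1.39 ± 0.32 at day 7 (adjusted p = 3.936e-04), the one subunit of this list called lower there.

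Of 13 ligands of the leukocyte integrins 9 could be tested, and 6 were called higher in the EZ at day 3 (16.1% of all genes) and 6 at day 7 (20.6%), with 2 lower at day 7 (11.9%). Their median log2 change was 0.95 and 1.29. C3, the source of the complement fragment bound by Mac-1, rose by 3.34 ± 0.60, 5.73 ± 0.67 and 5.13 ± 0.68 in the EZ over the 3 days, and by 4.76 ± 0.78 at day 3 in the PIZ. Icam1, the ligand of LFA-1 and Mac-1, rose by 2.32 ± 0.47, 3.74 ± 0.50 and 2.24 ± 0.48 in the EZ and by 1.86 ± 0.49 at day 3 in the PIZ. Without mouse 27 the day 14 change in the EZ was 2.79 ± 0.38 for C3, still called (adjusted p = 8.094e-05), and 0.61 ± 0.33 for Icam1, no longer called. With only the compared groups in the model, C3 was not called at that day, nor was any other gene. Vcam1, the ligand of VLA-4, rose by 1.41 ± 0.28 and 2.42 ± 0.29 at days 3 and 7 in the EZ, and gave 0.82 ± 0.28 at day 3 in the PIZ (adjusted p = 0.0281). Icam5, the neuronal ICAM, fell by 1.05 ± 0.33 at day 7 in the EZ (adjusted p = 0.0066). In the EZ, 3 of the 6 granule cell markers were called lower at day 3 and 3 at day 7.

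Of 24 matrix ligands and genes of latent TGF-beta, all tested, 17 were called higher and 1 lower in the EZ at day 3 (16.1% and 8.61% of all genes). At day 7 it was 18 higher (20.6%), at day 14 it was 3 (2.32%), none of them called without mouse 27 (0.0323% of all genes), and in the PIZ at day 3 it was 4 (7.12%). Their median log2 change in the EZ was 1.59 at day 3 and 1.85 at day 7. Spp1 (osteopontin), a ligand of Itgav and Itga4 receptors and the most abundant of the list per length, rose in the EZ by 7.61 ± 1.05, 7.71 ± 1.096 and 4.64 ± 0.996 over the 3 days, the last 2.02 ± 0.88 without mouse 27 and not called. In the PIZ at day 3 it gave 3.30 ± 0.98 (adjusted p = 0.0125). Fn1 (fibronectin), bound by Itga5 and Itga4 receptors, rose by 2.81 ± 0.40 and 2.14 ± 0.39 at days 3 and 7 in the EZ. Tgfb1, whose latent form the Itgav receptors activate, rose by 2.12 ± 0.37 and 3.21 ± 0.39 in the EZ and by 1.77 ± 0.38 at day 3 in the PIZ. Nrros, which anchors latent TGF-beta on microglia, rose by 1.52 ± 0.32 and 2.29 ± 0.33 in the EZ and gave 0.45 ± 0.32 at day 3 in the PIZ. The vitronectin gene Vtn (0.40 ± 0.16 and 0.56 ± 0.16 in the EZ) and Mfge8, a bridge between dying cells and Itgav receptors (0.20 ± 0.15 and 0.11 ± 0.15), were not called.

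Of 29 adaptors and kinases that act inside the cell, all tested, 12 were called higher and 2 lower in the EZ at day 3 (16.1% and 8.61% of all genes), and 14 higher and 2 lower at day 7 (20.6% and 11.9%). The share of the list called lower, 2 of 29, was no larger than that of all genes at either day. Their median log2 change was 0.51 and 0.54. Fermt3, the kindlin of blood cells that activates Itgb2 integrins, rose by 1.93 ± 0.39 and 3.49 ± 0.41 in the EZ and by 2.22 ± 0.40 at day 3 in the PIZ. Its broadly expressed relative Fermt2 gave 0.10 ± 0.08 and 0.21 ± 0.08 and was not called. Syk, a kinase downstream of Itgb2 integrins in myeloid cells, rose by 1.71 ± 0.37 and 2.69 ± 0.38 in the EZ. Tln1, the talin that links beta subunits to actin, rose by 1.46 ± 0.24 and 1.94 ± 0.24. Ptk2b, a focal adhesion kinase abundant in neurons and the most abundant of the list per length, fell by 1.38 ± 0.30 and 1.56 ± 0.30 in the EZ. Cd47, next in abundance, gave 0.25 ± 0.12 and -0.15 ± 0.12 and was not called.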

How the data were processed

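RNA was sequenced from the EZ and the PIZ of 24 mice (48 libraries). Per the authors' notes, reads were trimmed with fastp 0.20.1, aligned to GRCm39 with HISAT2 2.2.1 and assigned to the genes of Gencode M28 by featureCounts (Subread 1.6.4), by strand. A multi-mapping read was counted at its primary alignment, and a read over several genes was allowed, with the gene of largest overlap preferred. The deposited values are these counts, whole numbers that no scaling had touched. Here filterByExpr of edgeR 4.0.16 (R 4.3.3) removed low genes, TMM scaled the libraries and a quasi-likelihood model was fitted with 12 group means, with p-values adjusted over all genes of a comparison. Positions and transcript lengths came from Gencode M39. RPKM values are CPM per kilobase, computed here. Subunit ratios were compared by exact permutation over mice, from log2 CPM with a prior count of 2. The fit was also run on simulated counts with known fold changes, and the outcome is not given here. The 2 libraries of a mouse, paired by the labels, had residual correlations from -0.054 to 0.376.

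The 10 genes, the gene lists and the tests were chosen with earlier results of these data known. Named are the 10 subunits, the 2 most abundant tested genes per length of each pathway list, a preset set of partners, ligands and adaptors, and for 5 subunits the 3 genes outside the 10 with the highest r. The alternatives were DESeq2 1.42.0, limma-voom (limma 3.58.1) with quality weights, RLE scaling, no scaling beyond the library size, no filter or one of at least 10 counts per library, a looser threshold (adjusted p under 0.05), only the compared groups, the mouse as a replicate block, a prior count of 0.5 for ratios, and each mouse left out in turn.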

Additional observations from a re-analysis of the deposited data

Results flagged for a closer look

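In 13 of 120 groups of 4 libraries, 1 library of a subunit lay apart from the others by Dixon's test, which chance alone does in about 1 of 20 groups. Of these, 8 were the EZ library of mouse 27 in the kainate group of day 14. There Itgam was at 259 CPM (next highest 40.4), Itgb5 at 285 CPM (75.5), Itgav at 179 CPM (68.1), Itgb1 at 160.0 CPM (55.2), Itga6 at 123 CPM (38.7), Itgb2 at 83.8 CPM (18.4), Itga5 at 26.6 CPM (4.09) and Itgal at 4.53 CPM (0.919). The PIZ library of the same mouse was also apart for Itgb1, at 54.5 CPM over 47.3 CPM.

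Among single values, Itgal was at 1.19 CPM in the EZ of saline mouse 34 at day 7, where the next library had 0.188 CPM. In the PIZ of saline mouse 39 at day 14, Itga4 was high at 55.8 CPM (next 27.9) and Itga6 low at 28.8 CPM (next 31.3). Itgav was at 66.1 CPM in the PIZ of kainate mouse 26 at day 7, over 55.5 CPM.

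The kainate effect differed between the sides at day 7 in 8 subunits by the interaction term of the edgeR model, beside 9.89% of all genes. The log2 differences (EZ over PIZ) were 3.42 for Itgal, 2.88 for Itga5, 2.76 for Itgb2, 2.66 for Itgam, 1.95 for Itgb5, 1.86 for Itga6, 1.68 for Itgav and 1.52 for Itgb1. None of these calls remained without mouse 21, where 0.00463% of all genes were called.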

How the results depend on the processing

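With each mouse left out in turn, the number of subunits called in the EZ was 7 to 9 at day 3, 8 to 9 at day 7 and 0 to 6 at day 14, and in the PIZ 5 to 8 at day 3 and 0 at days 7 and 14. For the difference between sides at day 7 it was 0 to 8, and for the change of the EZ effect from day 7 to day 14 it was 0 to 7. The share of all genes moved with the mouse left out as well. In the EZ at day 14 it was 0.0323% higher without mouse 27 (0 subunits), and in the PIZ at day 3 it was 6.64% without mouse 30 (5). Between the sides at day 7 it was 0.00463% without mouse 21 (0) and 3.68% without mouse 33 (6). For the EZ change it was 18.8% without mouse 27 (7). For the EZ at days 3 and 7 the full fit called 16.1% and 20.6% higher. At day 14 in the EZ, limma-voom and a model of only the compared groups called 0 (0.271% and 0% of all genes), DESeq2 6 (3.38%). By limma-voom, calls were 3 in the PIZ at day 7 (3.84% of all genes), 5 for the difference between sides at day 3 (8.78%), 3 for the EZ change from day 3 to day 7 (5.73%), 8 for that from day 7 to day 14 (29.5%) and 4 for the PIZ change from day 3 to day 7 (0.659%). With only the compared groups the last was 3 (0.791%) and saline EZ against PIZ was 1 (0.808%), while at each day alone, a comparison chosen after seeing the data, it was 0 with or without the block. At an adjusted p under 0.05 the EZ change from day 7 to day 14 was called in 5 (11.1%). The mouse as a replicate block, which pairs the sides, gave 0 calls at day 3 (0.178% of all genes), 9 at day 7 (11%) and 0 at day 14 (0%) for the difference between sides, adding Itgb8, and changed no other call. Also added after seeing the data, Icam1 and Spp1 lost their EZ day 14 calls without mouse 27, and Itgax and C3 did not. With only the compared groups no gene was called there, so Itgax and C3 lost theirs too. Of the 36 subunit ratios none passed with a prior count of 0.5 either. The cause of these shifts was not tested.

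Changes of sign were seen in subunits that were not called. With each mouse left out in turn, Itga4 ranged from -0.0098 to 0.3546 in the EZ at day 3, from -0.1188 to 0.7343 in the EZ at day 14 and from -0.535 to 0.0811 in the PIZ at day 7. In the PIZ at day 7, Itgav ranged from -0.0154 to 0.0975 and Itgb8 from -0.0611 to 0.1278. In the PIZ at day 14, Itgam ranged from -0.0544 to 0.0879, Itgav from -0.1015 to 0.044, Itga5 from -0.1086 to 0.2415, Itga6 from -0.0023 to 0.2157 and Itgb8 from -0.0078 to 0.2142. There limma-voom gave -0.0783 for Itgam, -0.0606 for Itga5 and -0.0264 for Itgb8, and library size only gave 0.0054 for Itgav. For the difference between sides at day 3, Itgb2 ranged from -0.2901 to 0.2996, Itga6 from -0.0301 to 0.24 and Itgb5 from -0.1239 to 0.2759. With 4 mice a group and 1 to 240 counts, Itgal has the least precise values.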
